A study of Homo sapiens with 8 samples.

Results

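GDF15 and 4 further secreted stress hormones of the liver, FGF21, INHBE, IGFBP1 and FST, were examined in CYP2C19-overexpressing HepG2 cells treated with plastic-related compounds. These 5 genes were picked out of the 60230 genes counted in the series. GDF15 was selected on its change against DMSO in these libraries, where it was among the most increased of the genes raised by all 3 compounds, so its changes against DMSO are given as a description with no test. The other 4 were chosen by their function, with earlier results of these data known. Of the 5 genes, 4 passed the filter on low counts and belonged to the 13400 genes tested, while FGF21 did not.

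HepG2, a line from a human liver tumour, served as the host, and all cells carried the overexpressed cytochrome P450 2C19 and were kept under blasticidin selection. The groups were DMSO, the solvent control, compound 4 (labelled metylcresol), compound 5 (tetrabut) and compound 6 (cyclohexil), with 2 samples in each of the 4 groups and 24 h of treatment. All 3 compounds are bridged bisphenols, and each was given at its own IC50 in these cells. The paper describes these 3 values as comparable, so the concentrations were similar and not equal. The IC50 values came from a longer treatment than the 24 h used here. Compound 4 bears a tert-butyl and a methyl group on each ring, compound 6 has cyclohexyl in place of tert-butyl, and compound 5 has tert-butyl groups only and an ethane-derived bridge. The labels name the replicates day 1 and day 2. Nothing tells whether they came from separate cultures, so the p-values measure the spread between these samples, which may be technical.

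The total count per library was between 9791659 and 17814595, and replicates of every group differed by more than counting noise. CYP2C19 itself was at 16.4 to 52.7 CPM (counts scaled to a TMM-normalized library size) and had counts in all 8 libraries. It was at 27.6 and 16.4 CPM in DMSO, 31.4 and 44.2 CPM under compound 4, and 52.7 and 37.9 CPM under compound 5. Under compound 6 it was at 23.9 and 21.2 CPM. Both libraries of compounds 4 and 5 were thus above both DMSO libraries, and the part of this in the changes of the members was not tested. None of the 9 hepatocyte markers was at 0 in any group. Their summed level was 50609 to 54595 CPM in the DMSO libraries and 34961 to 44686 CPM in the treated ones, and AFP (log2-fold change −0.71, adjusted p = 0.016, edgeR), APOA1 (−0.90, adjusted p = 0.015, edgeR), APOB (−0.61, adjusted p = 0.029, edgeR) and TF (−0.52, adjusted p = 0.028, edgeR) were called lower under compound 4. FGB was called higher under compound 5 (0.53, adjusted p = 0.030, edgeR). The fibroblast and stellate cell markers summed to 5.10 to 9.21 CPM in DMSO and up to 25.4 CPM under compound 4, nearly all of it PDGFRB (1.79, adjusted p = 0.0063, edgeR), with at least 3 of 6 markers at 0 in each group. The endothelial markers summed to at most 2.08 CPM, with 2 of 5 at 0. Among the 6 immune markers PTPRC, CD3E and MARCO were at 0, and LYZ made up most of their sum of 1419 to 2187 CPM. The macrophage marker CD68 was called higher under compound 4 (log2-fold change 0.80, adjusted p = 0.016, edgeR), while CD14 had a change of 1.42 there that did not pass (adjusted p = 0.093, edgeR). The part of these marker differences in the changes of the members was not tested.

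Hepatokines are proteins that hepatocytes release into the blood to act on other organs. GDF15, a distant member of the TGF-beta superfamily, lowers appetite through the brainstem receptor GFRAL and its partner RET, and FGF21 alters sugar and fat use through FGF receptors with the co-receptor KLB. INHBE encodes the activin E subunit, FST the activin-binding protein follistatin, and IGFBP1 a binding protein that holds insulin-like growth factors in the circulation. GDF15, FGF21, INHBE and IGFBP1 are known targets of the integrated stress response, in which ATF4 and CHOP (DDIT3) switch on genes of amino acid supply, and GDF15 also responds to EGR1.

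All 5 genes lie on the plus strand of GRCh38 and are protein-coding (GENCODE 29). GDF15 (ENSG00000130513) is at chr19:18374731-18389176 and FGF21 (ENSG00000105550) at chr19:48755559-48758333. INHBE (ENSG00000139269) is at chr12:57452323-57459280, IGFBP1 (ENSG00000146678) at chr7:45888357-45893668 and FST (ENSG00000134363) at chr5:53480409-53487134. GDF15 overlaps 1 other gene, MIR3189 on the same strand, which had 0 counts, and the other members overlap none. Promoter sequences of 3 of the 5 members, GDF15, FGF21 and FST, were in the RefSeq table used (GRCh38.p14). The start sites of that table differ from the GENCODE gene starts given above. The GDF15 window therefore lies inside the GENCODE span of GDF15, and the FST window overlaps the GENCODE start of FST. Other start sites were not searched. The 250 bases before the RefSeq start site are shown for GDF15, the gene with the largest changes, and for FGF21, the one with the fewest counts, with matched motif letters in capitals.
GDF15, chr19:18385908-18386157, plus strand: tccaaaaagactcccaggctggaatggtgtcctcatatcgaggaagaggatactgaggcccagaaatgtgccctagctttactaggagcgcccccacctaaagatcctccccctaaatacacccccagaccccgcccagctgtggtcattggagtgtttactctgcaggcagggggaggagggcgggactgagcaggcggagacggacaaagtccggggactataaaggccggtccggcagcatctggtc
FGF21, chr19:48755274-48755523, plus strand: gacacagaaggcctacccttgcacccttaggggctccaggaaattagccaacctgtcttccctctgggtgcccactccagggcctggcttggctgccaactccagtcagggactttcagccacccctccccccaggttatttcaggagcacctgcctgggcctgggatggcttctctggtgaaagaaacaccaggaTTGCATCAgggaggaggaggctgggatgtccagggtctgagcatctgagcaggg
Both strands were searched for the C/EBP-ATF composite element TGATGNAA, the cyclic AMP response element TGACGTCA, the AP-1 site TGANTCA, the antioxidant response element core TGACNNNGC, the EGR1 site GCGGGNGCG and the E-box CACGTG. These letters occurred in 3.14%, 1.65%, 6.57%, 10.9%, 8.43% and 6.34%, respectively, of 35116 promoters of the same length. The FGF21 window held the composite element on the minus strand, read as TTGCATCA on the plus strand from base −54. The FST window, chr5:53480379-53480628, held 1 AP-1 match, TGATTCA from base −160. None of these letters was in the GDF15 window. A match is a description of the sequence, and nothing follows from it about binding.

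GDF15 was at a higher level in each of the 6 treated libraries than in either DMSO library. Replicates 1 and 2 were at 384 and 254 CPM in DMSO, 1444 and 2073 CPM under compound 4, 3001 and 1721 CPM under compound 5, and 870 and 1655 CPM under compound 6. The group means were 319 ± 91.4, 1759 ± 444, 2361 ± 905 and 1263 ± 555 CPM (SD, n = 2), in that order. The lowest treated library, replicate 1 of compound 6, was thus well above the highest DMSO library, while the treated groups spread widely. Replicate 2 was above replicate 1 under compounds 4 and 6 and below it in DMSO and under compound 5. The fitted log2-fold changes against DMSO were 2.46 (SE 0.36) for compound 4, 2.89 (SE 0.37) for compound 5 and 1.99 (SE 0.35) for compound 6, or 5.52-, 7.41- and 3.96-fold. By size these changes ranked 81, 41 and 99 of 13400 genes.

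Since GDF15 was selected on these contrasts, the ranks describe the selection. Of the 45 genes called higher under all 3 compounds, GDF15 ranked 2 by the lowest of its 3 log2-fold changes. CDCP1, a surface protein, stood just above it at 2.11, and JAG1, a Notch ligand, just below it at 1.82. Leaving out a library moved the GDF15 change to between 2.18 and 2.78 under compound 4, 2.42 and 3.24 under compound 5, and 1.45 and 2.37 under compound 6. Within days, the log2 difference of GDF15 from DMSO was 1.91 on day 1 and 3.02 on day 2 under compound 4. It was 2.97 and 2.76 under compound 5, and 1.18 and 2.70 under compound 6. The day 1 differences were thus the smaller ones under compounds 4 and 6, and nearly the same as on day 2 under compound 5.

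GDF15 transcripts also took up a measurable share of each library. They made up 0.0383% and 0.0266% of all counts in the DMSO libraries, 0.143% and 0.209% under compound 4, 0.284% and 0.170% under compound 5, and 0.0878% and 0.169% under compound 6. Per kilobase of transcript, GDF15 ranked 158 and 225 among 14862 coding genes in DMSO and between 11 and 72 in the treated libraries. The highest rank was that of replicate 1 of compound 5.

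**Figure D1:**
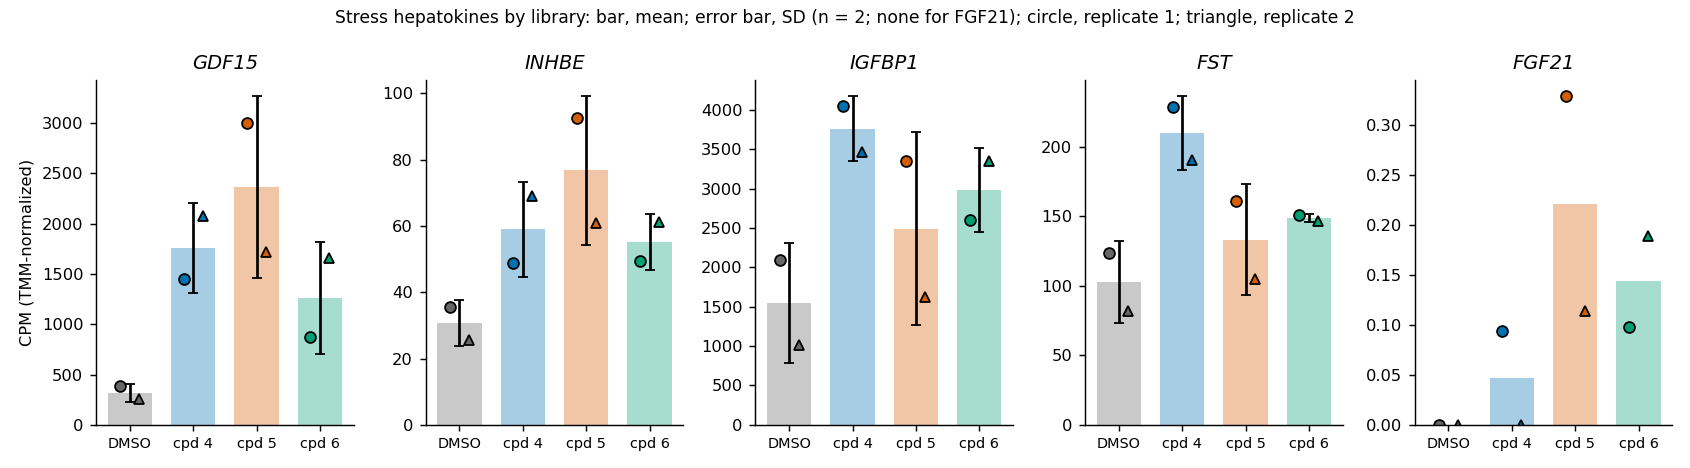
Level in CPM of the 5 stress hepatokines in every library, by group, with a separate linear axis for each gene; bars are means, error bars SD (n = 2), circles replicate 1 and triangles replicate 2. All 6 treated libraries had more GDF15 than both DMSO libraries, and the FGF21 axis ends below 0.4 CPM.

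INHBE, the activin E subunit, was also above both DMSO libraries in all 6 treated libraries, at much lower levels than GDF15. It was at 35.5 and 25.7 CPM in DMSO, 48.8 and 69.1 CPM under compound 4, 92.6 and 60.9 CPM under compound 5, and 49.3 and 61.1 CPM under compound 6. The means were 30.6 ± 6.96, 58.98 ± 14.3, 76.7 ± 22.4 and 55.2 ± 8.37 CPM (SD, n = 2). INHBE rose under compound 4 (log2-fold change 0.95, SE 0.25, adjusted p = 0.041, edgeR) and under compound 5 (1.33, SE 0.25, adjusted p = 0.015, edgeR). Under compound 6 the change of 0.86 (SE 0.25, 95% confidence interval 0.30 to 1.41) did not pass the test of edgeR (adjusted p = 0.12) and did pass that of DESeq2 (adjusted p = 0.014).

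The INHBE call under compound 4 was not kept in every fit that left out 1 library. A group left with 1 sample takes its spread from the other groups in such a fit. The call was lost in edgeR without DMSO replicate 1 (log2-fold change 1.20, adjusted p = 0.070) or replicate 2 (0.73, adjusted p = 0.29), without compound 4 replicate 2 (0.68, adjusted p = 0.24), and without compound 6 replicate 1 (0.95, adjusted p = 0.054) or replicate 2 (0.96, adjusted p = 0.053). The call under compound 5 was lost in edgeR without DMSO replicate 1 (1.56, adjusted p = 0.064) or replicate 2 (1.11, adjusted p = 0.14) and without compound 5 replicate 1 (0.99, adjusted p = 0.096). Over all genes, the number called under compound 4 fell from 1275 to 390 and 43 without DMSO replicates 1 and 2, to 152 without compound 4 replicate 2 and to 961 and 973 without compound 6 replicates 1 and 2. Under compound 5 it fell from 1112 to 77, 46 and 118 in the 3 fits named. The direction of INHBE held in each of these fits.

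IGFBP1 had the highest CPM of the 5 genes in both DMSO libraries. Its levels were 2091 and 1014 CPM in DMSO, 4052 and 3466 CPM under compound 4, 3354 and 1623 CPM under compound 5, and 2605 and 3354 CPM under compound 6. The means were 1552 ± 761, 3759 ± 415, 2488 ± 1224 and 2980 ± 530 CPM (SD, n = 2). Both libraries of compounds 4 and 6 were above both DMSO libraries, whereas those of compound 5 overlapped with them. The DMSO replicates differed 2.06-fold, as did those of compound 5 (2.07-fold), and in both groups replicate 1 was the higher one. The log2-fold change under compound 4 was 1.28 (SE 0.36) and fell short of the threshold (adjusted p = 0.055, edgeR), while with the replicate as a block it was 1.34 and passed (adjusted p = 0.028, edgeR). The changes were 0.68 (SE 0.36, adjusted p = 0.24, edgeR) under compound 5 and 0.94 (SE 0.36, adjusted p = 0.20, edgeR) under compound 6. Single libraries set much of these sizes, as the value under compound 5 was 0.055 without compound 5 replicate 1, 1.12 without its replicate 2, 0.25 without DMSO replicate 2 and 1.28 without DMSO replicate 1. Under compound 6 it was 0.51 without DMSO replicate 2 and 1.54 without DMSO replicate 1. The value under compound 4 was 0.85 without DMSO replicate 2 and 1.89 without DMSO replicate 1. Without compound 4 replicate 1 or 2 it was 1.15 or 1.39, and without compound 5 replicate 1 or 2 it was 1.27 or 1.28. IGFBP1 under compound 4 passed the threshold in 7 of the 14 alternatives. It did not pass in DESeq2 (1.27, adjusted p = 0.11) or with the DESeq2 size factors (1.27, adjusted p = 0.059, edgeR).

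FST, the activin antagonist, rose under compound 4. It was at 124 and 82.2 CPM in DMSO, 229 and 191 CPM under compound 4, 161 and 105 CPM under compound 5, and 151 and 147 CPM under compound 6. The means were 103 ± 29.5, 210 ± 26.7, 133 ± 39.9 and 149 ± 2.72 CPM (SD, n = 2). The libraries of compounds 4 and 6 lay above both DMSO libraries, and 1 of the compound 5 libraries lay between them. The log2-fold change under compound 4 was 1.03 (SE 0.22, adjusted p = 0.024, edgeR). It was 0.37 (SE 0.22, adjusted p = 0.30, edgeR) under compound 5 and 0.53 (SE 0.22, adjusted p = 0.25, edgeR) under compound 6. The value under compound 5 was 0.018 without compound 5 replicate 1, 0.65 without its replicate 2, 0.10 without DMSO replicate 2 and 0.68 without DMSO replicate 1, and that under compound 6 was 0.27 and 0.84 without DMSO replicates 2 and 1. The call under compound 4 was lost in edgeR without DMSO replicate 2 (0.76, adjusted p = 0.20) and without compound 4 replicate 1 (0.88, adjusted p = 0.088) or replicate 2 (1.15, adjusted p = 0.080).

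FGF21, a stress hormone that ATF4 can induce, was almost without reads. It had 0 counts in both DMSO libraries, 1 and 0 under compound 4, 4 and 2 under compound 5, and 1 and 2 under compound 6, or 10 counts in all. A count of 0 allows a level of up to 0.307 and 0.251 CPM in the DMSO libraries (3 counts, counting error only), and the highest treated library was at 0.329 CPM. FGF21 was thus measured at no more than 0.329 CPM in any library. A difference within this low range was not detectable at this depth, and no fold is given.

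INHBE, IGFBP1 and FST, the members tested besides GDF15, thus had 2, 1 and 0 calls under compounds 4, 5 and 6, all of them higher. Over all 13400 genes 5.6%, 5.35% and 0.493%, respectively, were called higher, and 3.91%, 2.95% and 0.0821% were called lower. At an unadjusted p under 0.05 in edgeR, 3, 1 and 3 of these 3 members passed, as did 27.5%, 28.4% and 18.6% of all genes. DESeq2 called 2, 1 and 1 of them, and 10.8%, 10.4% and 3.91% of the genes to which it gave an adjusted p. Both treated libraries were above both DMSO libraries for 3 of the 3 under compound 4, for 1 under compound 5 and for 3 under compound 6, which 30.4%, 31% and 29.3% of all genes tested did. The median log2-fold change of all genes was 0.01, 0.00 and 0.02, and a value near 0 follows from the TMM scaling.

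**Figure D2:**
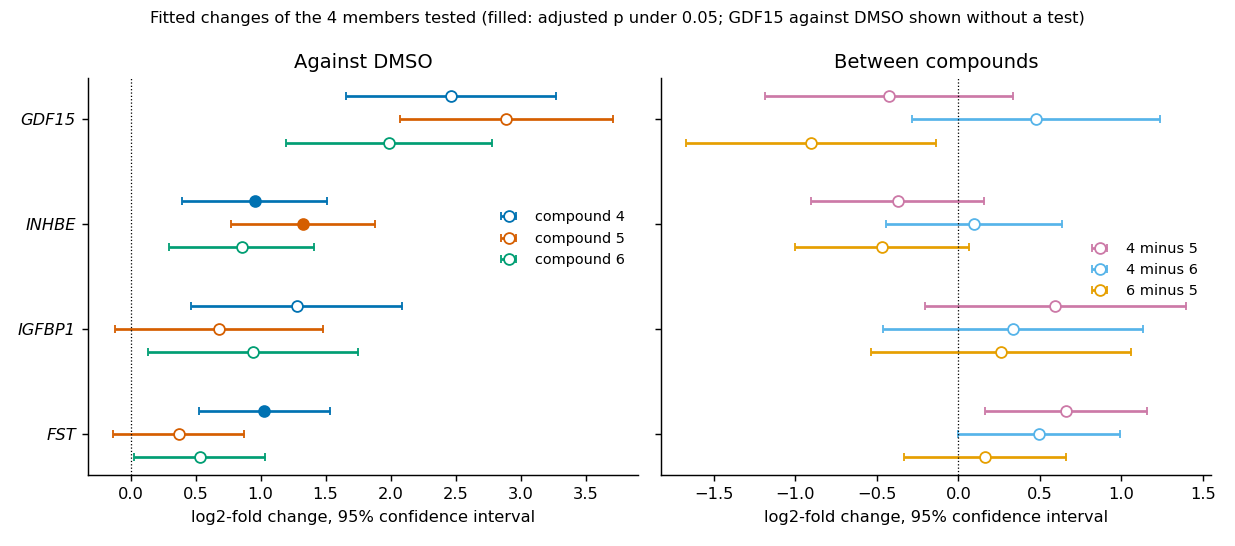
Fitted log2-fold changes of the 4 members tested, with 95% confidence intervals, against DMSO (left) and between compounds (right); filled points have an adjusted p under 0.05, and GDF15 against DMSO is drawn without a test. The only filled points are INHBE under compounds 4 and 5 and FST under compound 4.

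The compounds were also compared with each other in 3 pairs, at their own IC50 values, which were similar and not equal. None of the 4 members tested passed the threshold in any pair. Where both libraries of a compound are given below as above or below those of another, this is a description. The share of all genes with libraries apart in this way was not counted for these pairs. Against DMSO, 30.4%, 31% and 29.3% of all genes tested had both libraries of compounds 4, 5 and 6 above both DMSO libraries. The share of all genes called was 0.313% for compound 4 against compound 5 (42 genes, 128 with the replicate as a block) and 1.03% for compound 6 against compound 5 (138 genes, 269 with the block). For compound 4 against compound 6 it was 0% (0 genes in edgeR, 1 with the block and 59 in DESeq2, with 945 genes at an unadjusted p under 0.05 in edgeR). At an unadjusted p under 0.05, 1, 1 and 0 of the 4 members passed for compound 4 against 5, 6 against 5 and 4 against 6, beside 16.2%, 18.5% and 7.05% of all genes.

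GDF15 was compared between compounds 6 and 5, which carry different ring substituents and bridges. The compound 6 libraries, at 870 and 1655 CPM, were both below those of compound 5, at 3001 and 1721 CPM. The log2 difference of compound 6 from compound 5 was −0.90, with a 95% confidence interval of −1.67 to −0.14 (adjusted p = 0.21, edgeR). It was −1.79 on day 1 and −0.06 on day 2. Without 1 library it was −0.45 (compound 5 replicate 1), −0.51 (compound 6 replicate 1), −1.25 (compound 5 replicate 2) or −1.44 (compound 6 replicate 2). For compound 4 against compound 5 the difference of GDF15 was −0.42 (interval −1.19 to 0.34, adjusted p = 0.56, edgeR), and for compound 4 against compound 6, which differ in tert-butyl against cyclohexyl, 0.48 (interval −0.28 to 1.24, adjusted p = 0.82, edgeR). In both of these pairs the libraries overlapped.

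FST stood the other way round, with both libraries of compound 4 above those of compound 5. Its log2 difference was 0.66 (interval 0.16 to 1.155, adjusted p = 0.20, edgeR), and it was 0.50 on day 1 and 0.86 on day 2. Left with replicate 1 alone of compound 5 it was 0.37, and with replicate 2 alone 1.01. For compound 4 against compound 6 it was 0.49 (interval −0.003 to 0.99, adjusted p = 0.71, edgeR). IGFBP1 was likewise higher in both compound 4 libraries than in those of compound 5, by 0.60 (interval −0.20 to 1.40, adjusted p = 0.43, edgeR), and than in those of compound 6, by 0.34 (interval −0.46 to 1.13, adjusted p = 0.89, edgeR). For INHBE the difference of compound 4 from compound 5 was −0.37 (interval −0.90 to 0.16, adjusted p = 0.46, edgeR), that of compound 4 from compound 6 was 0.10 (interval −0.44 to 0.64, adjusted p = 0.96, edgeR), and that of compound 6 from compound 5 was −0.47 (interval −1.01 to 0.06, adjusted p = 0.33, edgeR). For compound 6 against compound 5, the difference was 0.26 for IGFBP1 (interval −0.54 to 1.06, adjusted p = 0.73, edgeR) and 0.16 for FST (interval −0.33 to 0.66, adjusted p = 0.73, edgeR). The intervals thus included 0 except for GDF15 between compounds 6 and 5 and of FST between compounds 4 and 5.

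A pair of patterns could be described across the 8 libraries, which share the 4 groups and are not independent. The level of INHBE followed that of GDF15 closely, with a Pearson r of 0.97 between their log2 CPM (n = 8), and the level of FST followed that of IGFBP1, with an r of 0.96 (n = 8). Across these pairs the values were lower, at 0.73 for GDF15 and IGFBP1, 0.64 for GDF15 and FST, 0.70 for INHBE and IGFBP1, and 0.57 for INHBE and FST. All of these r values include the step from DMSO to the treated libraries, on which GDF15 was selected. By r with GDF15, INHBE was number 64 among all genes compared. The mean level of GDF15 and INHBE was highest under compound 5, whereas that of IGFBP1 and FST was highest under compound 4. The order of the groups was compound 5, compound 4, compound 6 and DMSO for GDF15 and INHBE, and compound 4, compound 6, compound 5 and DMSO for IGFBP1 and FST. The test of the difference between neighbours among the compounds in these orders did not pass the threshold for any of the 4 genes.

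**Figure D3:**
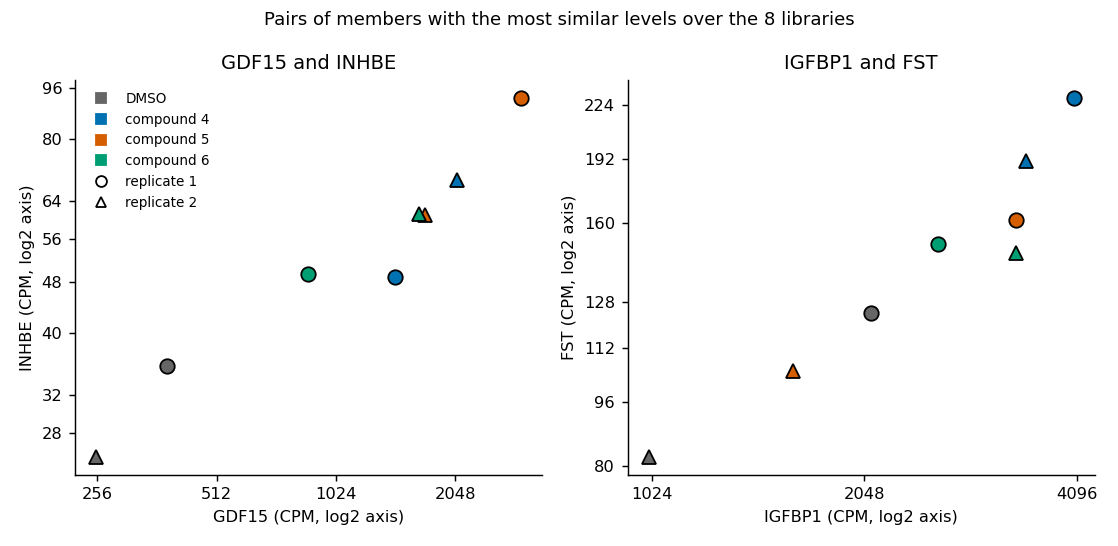
Level in CPM (log2 axes) of INHBE against GDF15 (left) and of FST against IGFBP1 (right) in the 8 libraries, coloured by group; circles are replicate 1 and triangles replicate 2. Replicate 1 of compound 5 is at the top right for GDF15 and INHBE, and replicate 1 of compound 4 for IGFBP1 and FST.

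Differences between the replicates were compared as well. From replicate 1 to replicate 2, GDF15 differed by −0.59 in DMSO, 0.52 under compound 4, −0.80 under compound 5 and 0.93 under compound 6 on the log2 scale. INHBE had the same signs, with −0.46, 0.50, −0.60 and 0.31. IGFBP1 differed by −1.04, −0.23, −1.05 and 0.36, and FST by −0.59, −0.26, −0.62 and −0.04. The signs within each pair were thus the same in every group, except for IGFBP1 and FST under compound 6. All of these genes were lower in replicate 2 in DMSO and under compound 5. Under compound 6 the sign of IGFBP1 was that of GDF15 and INHBE, so the signs split by pair only under compound 4.

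Compared per kilobase of the longest coding transcript, IGFBP1 was the highest of the 5 genes in 6 of 8 libraries. In DMSO the mean level was 939 CPM per kilobase for IGFBP1, 266 for GDF15, 40.6 for FST and 12.6 for INHBE. Under compound 4 it was 2274, 1465, 82.7 and 24.3, and under compound 6 it was 1803, 1052, 58.7 and 22.7, in the same order of genes. GDF15 exceeded IGFBP1 in both compound 5 libraries, at 2501 against 2029 and 1434 against 982 CPM per kilobase.

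For each member, the genes most like it in log2 CPM over the 8 libraries were looked up among 12729 genes with a mean of at least 1 CPM. For GDF15 these were PHLDA2 (r = 0.993), DAGLA, a lipase that makes the endocannabinoid 2-AG (0.992), SRXN1, sulfiredoxin (0.991), PIK3CD, a catalytic subunit of PI3 kinase (0.991), and PNPLA8, a phospholipase (0.990). PHLDA2 had a mean of 2.01 CPM in DMSO and of 8.46, 10.1 and 6.62 CPM under compounds 4, 5 and 6. For INHBE they were ABTB3 (0.996), the splicing regulator MBNL2 (0.992) and the autophagy gene ATG2A (0.991). For IGFBP1 they were the transcriptional repressor BHLHE40 (0.980), ZNF277 (0.978) and C1orf43 (0.978), and for FST the tetraspanin CD9 (0.992), LINC02525 (0.992) and again C1orf43 (0.989). INHBE was number 64 on the list of GDF15, and FST number 19 on that of IGFBP1.

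Genes of the pathway around the members were taken from 7 lists of 97 genes. Of the 70 that were tested 17, 20 and 3 were called under compounds 4, 5 and 6, while 9.51%, 8.3% and 0.575% of all genes were called in either direction. With the replicate as a block 22, 22 and 2 list genes were called, and all 17, 17 of the 20 and 2 of the 3 were among them. Log2-fold changes of list genes are from the fit without the block, also where an adjusted p with the block is given. Calls were lost when a DMSO library was left out, as they were over all genes. Without DMSO replicate 1, 5, 0 and 0 of them were still called in edgeR, and without DMSO replicate 2, 1, 0 and 0. Likewise 1 of the 17 was still called without compound 4 replicate 2, 2 of the 20 without compound 5 replicate 1, and 1 and 0 of the 3 without compound 6 replicates 1 and 2. The genes kept under compound 4 were TSKU without either DMSO library, and NUPR1, IGFBP3, TGFB1 and HAMP without replicate 1. No call turned its direction.

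Among the 12 transcription factors listed as regulators of these genes, compound 5 had the most calls, while 8.3% of all genes were called under it. Higher under compound 5 were EGR1, DDIT3 (CHOP), CEBPB, ATF4 and HIF1A, and MLXIPL (ChREBP), the glucose-sensing factor, was lower. EGR1 was at 6.35 and 4.52 CPM in DMSO, 45.0 and 22.7 CPM under compound 5, 14.4 and 12.5 CPM under compound 4 and 15.2 and 28.5 CPM under compound 6. Its log2-fold change under compound 5 was 2.64 (SE 0.39, adjusted p = 0.0075, edgeR). DDIT3 was at 13.9 and 11.1 CPM in DMSO and 70.1 and 25.6 CPM under compound 5, with a log2-fold change of 1.93 (SE 0.48, adjusted p = 0.041, edgeR) that was lost with the replicate as a block (adjusted p = 0.054, edgeR). ATF4, whose activity is set mainly by translation, rose by 0.65 (adjusted p = 0.022, edgeR) and CEBPB by 1.03 (adjusted p = 0.023, edgeR).

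Under compound 4, HIF1A rose (log2-fold change 0.48, adjusted p = 0.038, edgeR), MLXIPL fell by 0.55 (adjusted p = 0.016, edgeR) and XBP1 fell by 0.48 (adjusted p = 0.029, edgeR). CEBPB had a change of 0.77 that passed with the block (adjusted p = 0.018, edgeR) and not without it (adjusted p = 0.052, edgeR). Under compound 5 the block added NFE2L2, the oxidative stress factor NRF2 (0.44, adjusted p = 0.048, edgeR). No regulator passed under compound 6 in edgeR, where EGR1 was nearest (2.02, adjusted p = 0.054). The median log2-fold change of the 12 regulators was 0.38, 0.52 and 0.36 under compounds 4, 5 and 6, beside 0.01, 0.00 and 0.02 over all genes.

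A number of targets of the integrated stress response other than the members rose under each compound. Of 18 listed genes 17 were tested, and CHAC1 had 0 counts in every library. For CHAC1 and the other genes given below with 0 counts, whether expression or quantification set the 0 was not tested. Under compounds 4, 5 and 6, respectively, 7, 8 and 3 of the 17 were called higher and none lower, with medians of 0.79, 1.00 and 0.92. The shares of all genes called higher were 5.6%, 5.35% and 0.493%. ASNS, asparagine synthetase, was called under all 3 compounds. It was at 59.1 and 53.2 CPM in DMSO, 111 and 184 CPM under compound 4, 195 and 141 CPM under compound 5, and 154 and 209 CPM under compound 6. Its log2-fold changes were 1.40 (adjusted p = 0.012, edgeR), 1.58 (adjusted p = 0.0096, edgeR) and 1.69 (adjusted p = 0.033, edgeR).

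SLC7A11, the cystine importer, rose by 1.14 (adjusted p = 0.037, edgeR), 1.70 (adjusted p = 0.011, edgeR) and 1.67 (adjusted p = 0.048, edgeR), the last of which did not hold with the block (adjusted p = 0.058, edgeR). Its partner SLC3A2 was at 225 and 220 CPM in DMSO and rose by 1.24 under compound 4 (adjusted p = 0.033, edgeR) and by 1.99 under compound 5 (adjusted p = 0.0093, edgeR). PPP1R15A, the phosphatase subunit that ends the response, rose by 2.31 under compound 5 (adjusted p = 0.019, edgeR). NUPR1, a stress-induced nuclear protein, rose by 1.74 under compound 4 (adjusted p = 0.0066, edgeR), and PCK2, mitochondrial PEP carboxykinase, by 0.75 under compound 6 (adjusted p = 0.046, edgeR). MTHFD2, of mitochondrial folate metabolism, rose by 1.00 and 1.25 under compounds 4 and 5 (adjusted p = 0.041 and 0.023, edgeR), and VLDLR, a lipoprotein receptor, by 1.27 and 1.32 (adjusted p = 0.038 and 0.036, edgeR). CEBPG rose by 0.73 under compound 4 (adjusted p = 0.040, edgeR) and CTH, an enzyme of cysteine synthesis, by 1.40 under compound 5 (adjusted p = 0.016, edgeR). SESN2 rose by 1.00 under compound 5 (adjusted p = 0.046, edgeR), a call lost with the block. The block added PCK2 and STC2 under compound 4 (0.44 and 0.36, adjusted p = 0.036 and 0.041, edgeR) and PSAT1 under compound 5 (0.41, adjusted p = 0.025, edgeR). Both treated libraries exceeded both DMSO libraries for 12, 16 and 14 of the 17 genes, beside 30.4%, 31% and 29.3% of all genes tested.

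**Figure D4:**
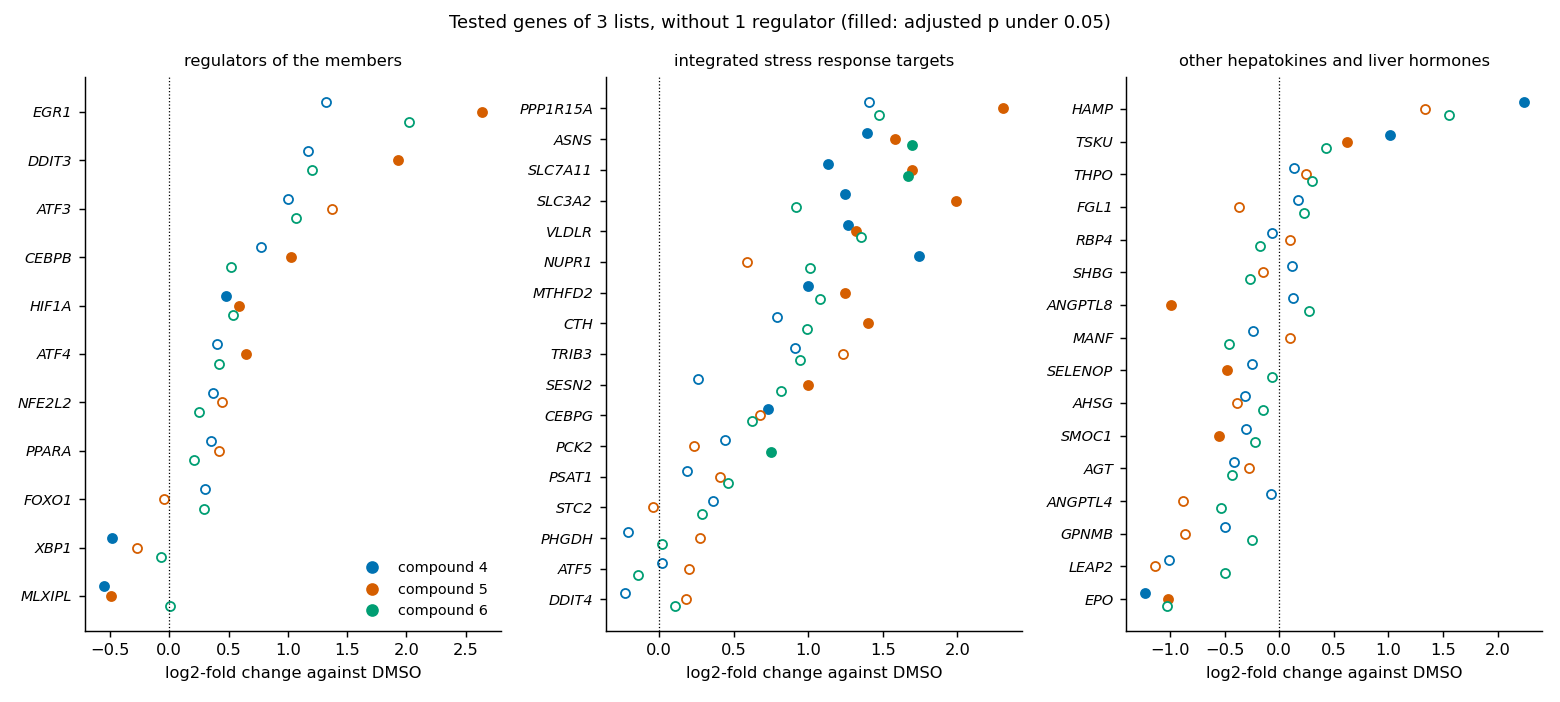
Log2-fold changes against DMSO of the tested genes of 3 lists, without 1 regulator that is not reported here: regulators of the members, targets of the integrated stress response, and other hepatokines and liver hormones; blue is compound 4, orange compound 5 and green compound 6, and filled points have an adjusted p under 0.05. Most targets of the integrated stress response lie to the right of 0 under all 3 compounds, while most other hepatokines lie to the left.

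Receptors of the members were looked up as well. GFRAL and RET had 0 counts in all libraries. Of the 15 listed receptors and co-receptors 11 were tested, and the single call under compounds 4 and 5 was KLB, the co-receptor of FGF21. Over all genes, 9.51% and 8.3% were called in either direction under these 2 compounds, so the receptors were near that share. KLB was at 86.2 and 77.0 CPM in DMSO, 43.8 and 25.9 CPM under compound 4, 36.1 and 39.3 CPM under compound 5, and 44.9 and 31.1 CPM under compound 6, so that no treated library reached the DMSO libraries. It fell by 1.23 (adjusted p = 0.015, edgeR) and by 1.11 (adjusted p = 0.023, edgeR) under compounds 4 and 5, and its log2-fold change under compound 6 was −1.10 (adjusted p = 0.060, edgeR). With the replicate as a block, FGFR1 (−0.61, adjusted p = 0.035, edgeR; 0.11 without the block) and TGFBR3 (−0.56, adjusted p = 0.0099, edgeR; 0.065 without) were called lower as well under compound 4, and FGFR4 (−0.42, adjusted p = 0.033, edgeR; 0.051 without) under compound 5. The medians of the 11 genes were 0.03, 0.02 and −0.01.

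Relatives of INHBE and FST were few among the genes tested. Of 6 further genes of the activin, inhibin and follistatin family 4 were tested and none was called under any compound, and INHBA, the activin A subunit, had 0 counts. With 9.51%, 8.3% and 0.575% of all genes called in either direction under compounds 4, 5 and 6, the lack of calls among 4 genes says little. INHBC, the activin C subunit, was at 2.97 and 3.76 CPM in DMSO, with log2-fold changes of −0.50, −0.96 and −0.54 that did not pass (adjusted p from 0.14 to 0.48, edgeR). The medians of the 4 genes were −0.15, −0.77 and −0.56. Of the 9 listed genes of the IGF axis beside IGFBP1, 5 were tested and 1 was called, IGFBP3 under compound 4. IGFBP3, the main carrier of these growth factors in blood, was at 29.5 and 14.8 CPM in DMSO and 100 and 81.6 CPM under compound 4, with a log2-fold change of 2.05 (SE 0.37, adjusted p = 0.013, edgeR).

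Other hormones of the liver went in both directions. Of 21 further hepatokines and liver hormones 16 were tested, of which 2 were called higher and 1 lower under compound 4, 1 higher and 4 lower under compound 5, and none under compound 6. The shares of all genes called higher were 5.6%, 5.35% and 0.493% under compounds 4, 5 and 6, and those called lower 3.91%, 2.95% and 0.0821%. HAMP, the iron hormone hepcidin, was at 30.3 and 8.78 CPM in DMSO and 81.2 and 100 CPM under compound 4 (log2-fold change 2.24, SE 0.43, adjusted p = 0.015, edgeR). TSKU rose under compounds 4 (1.02, adjusted p = 0.0022, edgeR) and 5 (0.62, adjusted p = 0.013, edgeR). EPO, erythropoietin, fell by 1.23 (adjusted p = 0.027, edgeR) under compound 4 and by 1.02 under compound 5 (adjusted p = 0.050 after rounding, just under the threshold, edgeR). ANGPTL8, which restrains lipoprotein lipase, fell by 0.99 (adjusted p = 0.015, edgeR) and SELENOP, the selenium carrier of plasma, by 0.48 (adjusted p = 0.039, edgeR) under compound 5. SMOC1 fell by 0.55 under compound 5 (adjusted p = 0.049, edgeR), a call that was lost with the block (adjusted p = 0.051, edgeR). The block added AHSG and FGL1, both lower under compound 5 (−0.39 and −0.37, adjusted p = 0.044 for each, edgeR). The medians of the 16 genes were −0.16, −0.38 and −0.20.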

How the data were processed

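mRNA libraries of 8 samples were sequenced as paired ends. The authors used Salmon 1.5.0 for quantification and tximeta for gene-level summaries, and the deposited values are raw counts in whole numbers. The labels mark replicate 1 of DMSO and of compound 4 as merged, without saying from what. How strand was handled in counting is not given in the sources used here.

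The test was edgeR 4.0.16 (quasi-likelihood, R 4.3.3) with TMM factors and filterByExpr (minimum count 10). The 8 samples shared 1 model, and p-values were adjusted after Benjamini-Hochberg over 13400 genes, with 0.05 as the threshold. A permutation test of 2 against 2 samples cannot pass this threshold. The coefficient of variation between replicates was 0.1215. Scripts were tested on simulated data. For within-day differences and likeness 0.5 CPM was added before taking log2. Alternatives were DESeq2 1.42.0, its size factors, no filter, 10 counts in every sample, a replicate block, the 4 samples compared, and leaving out each library.

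The replicate block rests on the day in the labels. Differences between replicates correlated between groups with r from −0.163 to 0.302 over genes. Members, lists and tests were chosen with earlier results of these data known. The text names all members, the genes of the pathway lists past the threshold and some at 0 counts, and the genes most like a member. Chosen after their values were seen were INHBC, FGF19, the markers given with values, the list genes called with the block only, and the genes ranked next to GDF15. 1 of the 12 listed regulators is counted with its list and not reported here. P-values of pairs of compounds were adjusted over all genes and not over the 3 pairs.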

Additional observations from a re-analysis of the deposited data

How the results depend on the processing

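With 2 samples per group, single libraries carried much of the result. Without 1 library, the genes called against DMSO were 43 to 1684 under compound 4, 46 to 1813 under compound 5 and 2 to 432 under compound 6, each lowest without DMSO replicate 2. Between compounds they were 9 to 25 (4 against 5), 0 to 13 (4 against 6) and 0 to 105 (6 against 5). Members called other than GDF15 were 0 to 3 under compound 4 and 0 to 1 under compound 5, and genes of the 7 pathway lists were 1 to 26, 0 to 25 and 0 to 8, against 17, 20 and 3 with all libraries. The log2-fold change of INHBE ranged from 0.68 to 1.20 under compound 4 and from 0.99 to 1.61 under compound 5, that of IGFBP1 under compound 4 from 0.85 to 1.89 and that of FST from 0.76 to 1.35. Between compounds, the sign turned for GDF15 in 4 against 5 (−0.77 to 0.036), INHBE in 4 against 6 (−0.18 to 0.32, and −0.04 without compound 6 replicate 1), IGFBP1 in 6 against 5 (−0.17 to 0.88) and FST in 6 against 5 (−0.12 to 0.50).

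Without the filter on low counts the fit took the spread of each gene wholly from genes of similar level (its prior degrees of freedom were infinite, against 5.69 with the filter). It then called 2383, 2431 and 1355 genes against DMSO and 750, 259 and 990 between compounds (4 against 5, 4 against 6, 6 against 5), with 33, 36 and 30 genes of the pathway lists. It called 3 members each under compounds 5 and 6 and 3, 2 and 2 between compounds. The log2-fold changes that passed only then were 0.68 and 0.93 for IGFBP1 and 0.37 and 0.52 for FST under compounds 5 and 6, −0.44, 0.48 and −0.92 for GDF15 in the 3 pairs, 0.59 for IGFBP1 and 0.65 for FST in 4 against 5, 0.50 for FST in 4 against 6 and −0.49 for INHBE in 6 against 5. INHBE under compound 6 passed at 0.84 without the filter, in DESeq2 and in the fit of 4 samples. IGFBP1 under compound 4 passed at 1.27 without the filter and in the fit of 4 samples. It also passed at 1.28 with 10 counts in every sample and at 1.34 with the replicate block. In DESeq2 and with the DESeq2 size factors IGFBP1 under compound 4 did not pass.

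Under compound 6, against 77 genes, 518 were called in DESeq2, 47 with its size factors, 198 with 10 counts in every sample and 1023 in the fit of 4 samples. Of the pathway lists 13, 5 and 20 were called in DESeq2, with 10 counts in every sample and in the fit of 4 samples, and 1 member each in DESeq2 and the fit of 4 samples. For compounds 4 against 5 the counts were 194 in DESeq2, 65 with 10 counts in every sample, 128 with the replicate block and 10 in the fit of 4 samples. For 4 against 6 they were 59 in DESeq2, 5 with 10 counts in every sample and 1 with the block, and for 6 against 5 they were 364 in DESeq2, 269 with the block and 49 in the fit of 4 samples. The causes of these shifts were not tested. The replicate block changed no other call of a member, and kept 17 of 17, 17 of 20 and 2 of 3 calls of list genes. FGF21, with 10 counts in all, was too low in every library for a comparison at this depth.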

Other observations

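Other ligands related to GDF15 and FGF21 were mostly at low levels. Of 16 listed TGF-beta and endocrine FGF ligands 5 were tested, and 2 of them were called higher under compound 4 and none under compounds 5 and 6. The shares of all genes called higher were 5.6%, 5.35% and 0.493% under compounds 4, 5 and 6. TGFB1, the founding member of its family, was at 59.7 and 41.5 CPM in DMSO, 94.4 and 103 CPM under compound 4, 84.4 and 63.4 CPM under compound 5, and 62.04 and 78.3 CPM under compound 6. Its log2-fold change under compound 4 was 0.97 (SE 0.20, adjusted p = 0.019, edgeR). BMP6, a signal that raises hepcidin transcription, was at 7.17 and 5.35 CPM in DMSO and 10.2 and 14.9 CPM under compound 4, with a log2-fold change of 1.02 (SE 0.27, adjusted p = 0.044, edgeR). Under compound 6 it was at 11.8 and 17.4 CPM, with a log2-fold change of 1.23 that did not pass (adjusted p = 0.067, edgeR). FGF19, the bile acid hormone, had at most 17 counts in a library and was not tested.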
